A study of Drosophila melanogaster with 5 samples.

Results

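The annotated open reading frames (ORFs) that are assembled from 10 or more coding exons were followed through 5 lists of translated ORFs from *D. melanogaster* S2 cells, a phagocytic, hemocyte-like line established from embryos. They were taken from the deepest list as ORFs of the annotated class with at least 10 exon lines and a length of at least 300 and under 6000 nt, and were looked up in the other 4 lists by the position of their stop codon. This gave 1313 ORFs of the 12048 in the deep list (10.9%), which ended at 527 distinct stop codons of 7976 and fell in 397 genes. The number of exons and the length were fixed by this choice and are not findings.

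Each list came from Ribo-Seq, which sequences the mRNA fragments that ribosomes shield from RNase. Lysates were footprinted either with A-RNaseI in Buffer 1 (50 mM Tris, 150 mM NaCl) or with E-RNaseI in Buffer 2 (100 mM Tris and, by the sample labels, 50 mM NaCl, although the methods give a lower NaCl), each in the presence or absence of cycloheximide (CHX), an inhibitor of translation elongation. RNase and buffer changed together, so their parts cannot be told apart, and the RNase names below stand for both. Treated cells received cycloheximide for 3 min before pelleting, and washing and lysis buffers contained it for all cells, untreated ones included. There was 1 sample per condition (the 4 standard lists) and 1 more deeply sequenced sample of untreated cells with E-RNaseI (the deep list). Neither the labels nor the methods say whether that sample is the standard library sequenced further. With 1 sample per condition, no difference could be set against a spread between replicates and no test was run. Intervals are 95% and cover counting error only, and since transcripts of a gene share P-sites, they are too narrow.

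A coding sequence split over many exons has to be joined at each intron before a ribosome can read it through. In flies most introns are short, and genes with many exons often hold a few very long introns that carry regulatory sequence, so the mature coding sequence can be a small part of the gene. Large modular proteins are typical products, such as cell surface receptors, ion pumps, myosins, scaffold proteins of cell junctions and the large proteins of chromosome structure, and many of these genes make several protein isoforms by alternative splicing or alternative promoters. In Ribo-Seq, the P-site is the position in the ribosome that holds the growing chain, and its assignment to single nucleotides gives the number of P-sites of an ORF, here used as its count and, per 100 nt of ORF, as its density. The ORF caller RiboTaper takes as the start codon the most upstream in-frame ATG that still has enough P-sites before the next one, so a called start depends on how many P-sites were sequenced.

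P-sites on the 1544 ORFs shared by all 5 lists summed to 454892 (A-RNaseI) and 912066 (E-RNaseI) for treated cells, to 320748 and 297407 for untreated cells, and to 4217322 in the deep list. Of 10 hemocyte markers 8 were in the deep list (not NimC1 and Ppn), against 0 of 5 neuron markers, 2 of 5 muscle markers and 2 of the 3 germ cell markers matched to a gene. The muscle marker Tm1, a tropomyosin gene that also makes non-muscle forms, was the only marker with an ORF of 10 or more exons.

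The chosen ORFs had a median of 12 exons (quartiles 11 and 14, highest 33) and were between 1134 and 5994 nt long. By their largest exon number, 310 of the 527 stop codons had 10 to 12 exons, 137 had 13 to 15, 60 had 16 to 19 and 20 had 20 or more. At the edge of the choice, 392 annotated ORFs of 9 exons had a median length of 2583 nt and 21.1 P-sites per 100 nt, and 313 of 10 exons had 3111 nt and 20.4. A further 483 annotated ORFs with at least 10 exons were left out because they reached 6000 nt or more. The most exons were called in Trpm, a TRP-type cation channel, with 33, followed by Cadps, a factor for release of dense-core vesicles, and scrib, a scaffold of epithelial polarity, with 24 each. These ORFs held 96, 31 and 1424 P-sites in the deep list, and whether each exon held P-sites was not examined.

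The structure of the genes follows in part from the choice, since many exons in a bounded length have to be short and the longest of many introns tends to be long, so these values are a description and were not compared at like length. Internal coding exons had a median of 183 nt, against 215 nt in ORFs of 5 to 9 exons and 286 nt in ORFs of 2 to 4 exons, and 40 of 4338 internal exons were under 30 nt. The share of internal exons whose length is a multiple of 3, which can be skipped without a shift of frame, was 39.9%, against 36.8% and 36.6%. Introns had a median of 73 nt (68 and 67 nt in the other classes), and 57.3% were under 100 nt (64.5% and 67.1%). The longest intron of each ORF had a median of 2522 nt, against 615 and 89 nt. The genomic span from start to stop codon had a median of 8824 nt, of which 36.6% was coding, against 61.7% and 85.3% in the other classes.

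The longest span belonged to pum, which encodes the translational repressor Pumilio. Its ORF of 4599 nt in 12 exons lay at 3R:9070948-9233860 on the minus strand (genome Release 6), a span of 162913 nt with a single intron of 132737 nt. Dbp80, a DEAD-box helicase of mRNA export, followed with 1443 nt of ORF in 142783 nt of 3L, and Gprk1, a G protein-coupled receptor kinase, with 1974 nt in 135968 nt of 2R. The shortest span, 2247 nt for 1584 nt in 10 exons, was that of Start1, a lipid-binding START-domain protein. The distance covered was thus very unlike among ORFs of similar length, and pum was nevertheless read at 49.7 P-sites per 100 nt in the deep list.

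On chromosome 4, the small dot chromosome, 18 of the 59 stop codons in the length window (30.5%, Wilson interval 20.3 to 43.1%) belonged to an ORF of 10 or more exons, against 527 of 7178 (7.34%) over the genome and 6.25 to 8.71% on the other arms. They fell in 11 genes whose densest ORFs ranged from 0.290 P-sites per 100 nt in CG11155 to 190 in eIF4G1, the scaffold of the cap-binding complex. Between them were PMCA, the calcium pump of the plasma membrane (133), Hcf, a chromatin cofactor (48.3), Cals, a calsyntenin (34.0), the receptor tyrosine kinase Eph (24.5), CaMKII (18.9), pan, the TCF factor of Wnt signalling (11.7), and unc-13, a synaptic vesicle priming factor (5.84).

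Density per 100 nt was moderate. Over the 527 stop codons, taking the ORF with the most P-sites at each, the deep list held a median of 17.6 P-sites per 100 nt (interval 15.3 to 19.7, quartiles 8.12 and 39.0, highest 509). ORFs of 1 exon had 25.1, those of 5 to 9 exons had 25.3 and those of 2 to 4 exons had the highest median of the 4 classes. From 1500 to under 3000 nt, the values were 18.9 (13.6 to 21) for 10 or more exons, 23.4 (21.7 to 26.3) for 5 to 9 exons, 20.8 for 2 to 4 and 20.1 for 1. From 3000 to under 6000 nt they were 16.4, 16.6, 16.5 and 15.2. The gap to the other classes was therefore small among ORFs of like length, and at 3000 nt or more it was within the interval. In a bulk sample, the amount of an mRNA, the number of cells that hold it and the number of ribosomes on it cannot be told apart.

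**Figure D1:**
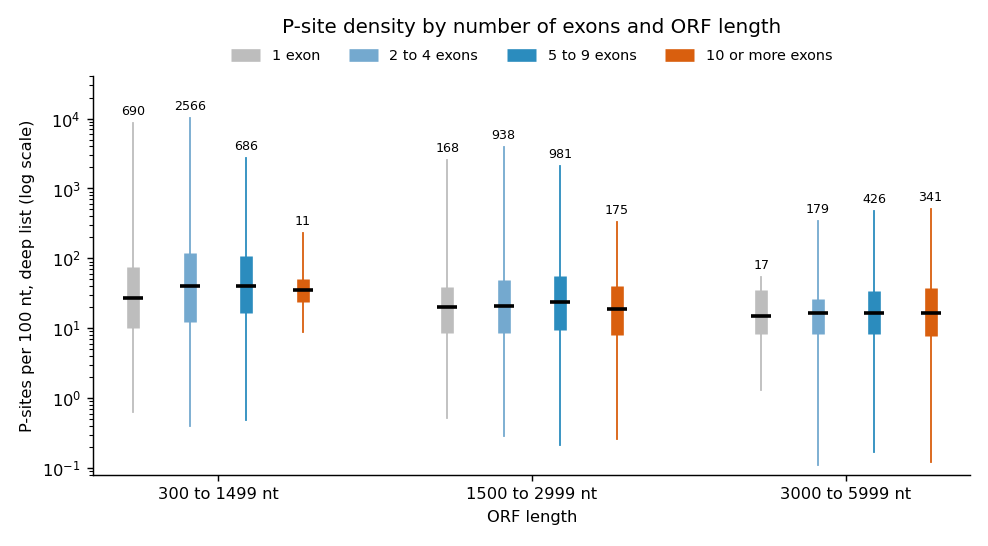
P-sites per 100 nt of ORF in the deep list (log axis) for annotated ORFs of 3 length classes, split by number of exons. Thin lines run from the lowest to the highest stop codon, thick bars span the quartiles, black ticks mark medians and the numbers above count stop codons. From 3000 nt upwards the 4 medians lie between 15.2 and 16.6, and the 341 ORFs of 10 or more exons span 0.125 to 509.

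The densest ORF was that of Atpalpha, the catalytic subunit of the Na+/K+ pump, at 3R:20948807-20973930 on the plus strand, with 15902 P-sites on 3123 nt (509 per 100 nt). It was followed by msk, the importin Moleskin (336), Fmr1, the RNA-binding protein related to fragile X syndrome (330), zip, the heavy chain of non-muscle myosin II (316), and Irc, an immune-regulated catalase (310). In the standard lists, the median over the stop codons found was 2.47 with A-RNaseI and cycloheximide, 4.03 with E-RNaseI and cycloheximide, 2.15 with A-RNaseI without it and 1.65 with E-RNaseI without it. The 4 medians stood in the order of the P-site sums, and the stop codons found differed between the lists.

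Most stop codons were found again. In the presence of cycloheximide, A-RNaseI gave 415 of 527 (78.7%, Wilson interval 75.1 to 82.0%), against 67.0% of all 7714 annotated stop codons of the deep list, and E-RNaseI gave 491 (93.2%, 90.7 to 95%), against 88.7%. In its absence, A-RNaseI gave 379 (71.9%, 67.9 to 75.6%), against 59.2%, and E-RNaseI gave 448 (85.0%, 81.7 to 87.8%), against 74.9%. All 4 shares were thus above the background of the same list. E-RNaseI without cycloheximide, the condition of the deep list, had the lowest P-site sum and the second highest share. Counted as genes, 326, 374, 301 and 347 of the 397 were found in the same order. A total of 344 stop codons (65.3%) were in all 4 standard lists, against 49.6% of the other annotated stop codons in the length window. In none of the 4 were 34 (6.45%), close to the 7.91% of those others.

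The higher share moved with length. ORFs of 10 or more exons had a median length of 3450 nt, against 1911 nt for 5 to 9 exons, 1077 nt for 2 to 4 and 969 nt for 1 exon. From 1500 to under 3000 nt, the shares of 175 stop codons were 69.1% (61.9 to 75.5%) with A-RNaseI and 92.0% with E-RNaseI in treated cells, and 60.6% (53.2 to 67.5%) and 79.4% in its absence. ORFs of 5 to 9 exons in that window had 75.9% (73.2 to 78.5%), 93.3%, 69.8% (66.9 to 72.6%) and 82.0%, and ORFs of 1 exon had 71.4%, 92.3%, 63.7% and 81.0%. For 2 to 4 exons the shares were 74.6%, 94.6%, 66.8% and 80.5%. In this window, ORFs with 10 or more exons therefore had the lowest share of the exon classes in each list. Their intervals overlapped those of the other classes, and the differences were not tested. From 3000 nt upwards, 341 stop codons gave 84.2%, 93.5%, 78.0% and 88.0% in the same order, against 84.5%, 97.7%, 78.6% and 90.8% for 5 to 9 exons. Under 1500 nt there were only 11 stop codons with 10 or more exons, of which 7, 11, 7 and 9 were found (63.6%, 100%, 63.6% and 81.8%), against 71.7%, 91.3%, 61.7% and 78.9% for 5 to 9 exons, so that the order varied between lists.

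**Figure D2:**
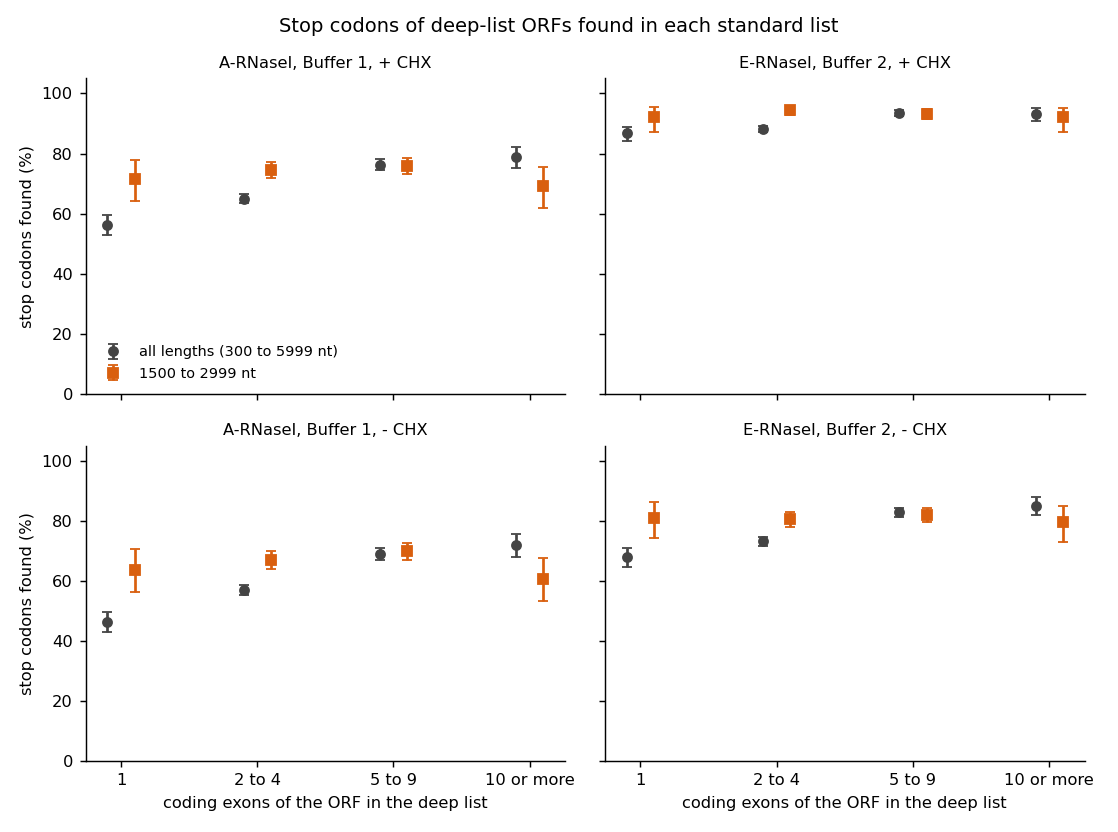
Percentage of deep-list stop codons found in each standard list, by number of coding exons. Circles show all lengths in the window, squares show lengths from 1500 to under 3000 nt, and bars are Wilson 95% intervals. Over all lengths the share rises from 56.3% at 1 exon to 78.7% at 10 or more with A-RNaseI and cycloheximide, and in the narrower window the corresponding shares are 71.4% and 69.1%.

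Density set apart the stop codons that were found from those that were not. Of the 48 with at least 80 P-sites per 100 nt in the deep list, 48 were found in each of the 4 lists. Between 20 and 80 they numbered 184, 192, 178 and 191 of 192 in the order A-RNaseI and E-RNaseI with, then A-RNaseI and E-RNaseI without cycloheximide. Below 5, they numbered 19, 49, 8 and 22 of 83. ORFs of 5 to 9 exons had the same gradient. At 80 or more, their shares were 97.9%, 100%, 95.1% and 100%. Between 20 and 80 they were 89.5%, 99.9%, 82.3% and 97.1%, and below 5 they were 16.9%, 54.8%, 13.4% and 17.6%. For 10 or more exons, the median deep density was 0.366 for stop codons in no standard list and 2.41 for those in 1. It was 4.79 in 2, 10.0 in 3 and 28.5 in all 4. Within the class of 5 to 20 P-sites per 100 nt and the same length window, 10 or more exons and 5 to 9 exons gave 62.3% (49.7 to 73.4%) and 67.9% (62.4 to 73%) with A-RNaseI and cycloheximide, and 82.0% and 80.2% with E-RNaseI without it, so the intervals overlapped.

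A few well-covered stop codons were nevertheless missing, and they were chosen for naming after their values were seen. The densest was that of sowah (58.1 per 100 nt, 892 P-sites in the deep list on 1536 nt in 13 exons, 3L:12538188-12572392, minus strand). It was called with 197 P-sites and the same start in E-RNaseI with cycloheximide and was in none of the other 3 lists. The stop codon of lap, an AP180-type clathrin assembly protein (55.8), was called with 45, 120 and 53 P-sites in 3 lists and was missing with A-RNaseI in the absence of cycloheximide. That of Nedd4, a ubiquitin ligase (51.0), was called with 106, 250 and 84 P-sites and was missing from the same list. A stop codon missing from a list has not been shown to be untranslated there.

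Of the stop codons in none of the 4 standard lists, the densest was that of CRMP, a protein of the collapsin response mediator family, with 145 P-sites (8.14 per 100 nt). Epac, an exchange factor for Rap (4.50), the secreted guidance cue Sema2a (2.15), and sei, a potassium channel of the ERG type (1.05), were among the next. These 4 ORFs had between 27 and 145 P-sites in the deep list. The standard lists held 4.62 to 14.2 times fewer P-sites on shared ORFs, and the part of depth in the absence of these 4 ORFs was not tested.

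The number of exons itself was followed in 6 classes. In E-RNaseI without cycloheximide, the share found was 90.2% at 10 exons, 86.4% at 11, 84.4% at 12, 82.9% at 13 or 14, 79.5% at 15 to 19 and 78.9% at 20 or more. In A-RNaseI without cycloheximide it was 79.7%, 71.2%, 71.9%, 61.0%, 71.6% and 84.2% in the same order. With cycloheximide, A-RNaseI gave 82.0%, 78.8%, 81.2%, 72.4%, 78.4% and 84.2%. E-RNaseI with cycloheximide gave 95.5%, 95.8%, 90.6%, 89.5%, 93.2% and 89.5%. Only E-RNaseI without cycloheximide fell at each step, and the last class held 19 stop codons. The median length was 3138 nt at 10 exons and 4533 nt at 20 or more, and neither length nor density was held here.

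Start codons often differed where the stop codon was the same. Pairs of ORFs with the same transcript and stop codon had an unchanged start in 413 of 953 with A-RNaseI and cycloheximide (43.3%, 40.2 to 46.5%), against 55.2% of all annotated pairs, and in 812 of 1179 with E-RNaseI and cycloheximide (68.9%, 66.2 to 71.4%), against 72.9%. Without cycloheximide, the start was unchanged in 266 of 864 with A-RNaseI (30.8%, 27.8 to 33.9%), against 44.3%, and in 357 of 1025 with E-RNaseI (34.8%, 32.0 to 37.8%), against 51.6%. Each share was below its background. The lists with the lowest shares also had the lowest P-site sums, and the part of depth in this order was not tested.

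Where the start differed, it mostly lay downstream. In treated cells this held for 469 of 540 pairs (86.9%) with A-RNaseI and 260 of 367 (70.8%) with E-RNaseI, and for 553 of 598 (92.5%) and 590 of 668 (88.3%) in untreated cells. These shares were close to the backgrounds of 85.2%, 71.0%, 91.3% and 85.0%. The distance was longer. Over all differing starts, upstream ones included, its median was 426, 255, 651 and 414 nt in the same order. Over all annotated pairs that differed, it was 264, 177, 333 and 252 nt. As a part of the ORF, downstream starts removed a median of 12.9%, 8.74%, 19% and 14.7%, against 15.3%, 10.7%, 17.5% and 15.4% over all annotated pairs. Relative to their length, the ORFs of 10 or more exons therefore lost a like part.

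A downstream start usually took whole exons with it. This was counted for ORFs of 10 or more exons only, whose exons are short in part by the choice. It is therefore not set against other exon classes. With A-RNaseI, 228 of the 469 downstream starts with cycloheximide lost 1 or 2 exons, 96 lost 3 to 5 and 31 lost 6 or more. The other 114 (24.3%) had the exon number of the deep list. Of the 553 without cycloheximide, 208 lost 1 or 2, 161 lost 3 to 5 and 84 lost 6 or more, and 100 (18.1%) lost none. With E-RNaseI, 89 of 260 (34.2%) with cycloheximide and 119 of 590 (20.2%) without it lost no exon. The largest losses were 12, 10, 13 and 11 exons, and 171, 83, 241 and 216 pairs had fewer than 10 exons left. These lists still held 840, 1144, 734 and 919 ORFs of 10 or more exons by the same rule, 10.9 to 11.1% of each list.

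**Figure D3:**
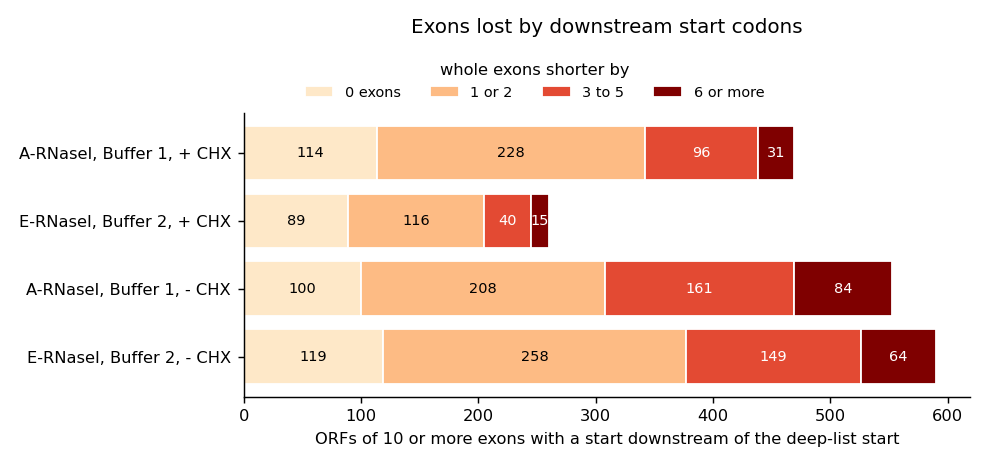
Number of ORFs of 10 or more exons whose start codon lay downstream of the deep-list start in each standard list, coloured by how many exons fewer the ORF then had. Losses of 3 or more exons make up 27.1% (A-RNaseI) and 21.2% (E-RNaseI) with cycloheximide, and 44.3% and 36.1% without it.

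The distance between start codons was largest in gek, a kinase that binds Cdc42. Its ORF of 4911 nt in 11 exons (845 P-sites in the deep list) was called in full with 115 and 67 P-sites by E-RNaseI with and without cycloheximide. With A-RNaseI it began 4308 nt downstream with 5 exons and 14 P-sites in the presence of cycloheximide and 1824 nt downstream with 38 P-sites in its absence. In rictor, a subunit of the TORC2 kinase complex, all 4 lists gave downstream starts, by 3978 nt (16 P-sites), 471 nt (70), 2025 nt (16) and 1302 nt (24) in the order used above. Crag, a regulator of Rab GTPases, was shifted by 3423 nt with A-RNaseI and cycloheximide (23 P-sites) and kept its start with E-RNaseI and cycloheximide (114). These largest shifts thus occurred at P-site counts of 14 to 23.

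Large shifts also occurred at larger counts in pum and SNF4Agamma, but the largest shift of Ino80 was on 20 P-sites. In pum (2288 P-sites in the deep list), the start was unchanged with E-RNaseI and cycloheximide (456 P-sites), and lay 1932 nt downstream with A-RNaseI and cycloheximide (205 P-sites, 6 of 12 exons), 2859 nt with A-RNaseI without it (112 P-sites, 3 exons) and 1074 nt with E-RNaseI without it (151 P-sites, 11 exons). SNF4Agamma, the gamma subunit of AMP-activated kinase, kept its start in both lists with cycloheximide (124 and 188 P-sites) and began 2865 and 2379 nt downstream in those without (39 and 62 P-sites). Ino80, the ATPase of a chromatin remodelling complex, kept its 14 exons in both lists with cycloheximide (83 and 99 P-sites) and began 486 and 3138 nt downstream without it (41 and 20 P-sites).

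The ORFs with the most P-sites among those shifted in both lists without and unshifted in both lists with cycloheximide were looked up after their values were seen, and they all compare with the same deep list. Dscam1, an immunoglobulin receptor known for its very many splice forms, had 21 exons and 12475 P-sites in the deep list (2R:7320679-7377560, minus strand). It kept 21 exons with 1033 and 2302 P-sites in the presence of cycloheximide and had 20 exons, with a start 168 nt downstream, with 817 and 811 P-sites in its absence. eIF4G1 (9377 P-sites, 4:915495-927508, minus strand) kept its start with 730 and 1787 P-sites and began 366 nt downstream with 483 and 651. The prominin relative promL kept its start with 644 and 1209 P-sites and began 330 nt downstream with 373 and 398, without loss of an exon. Gp210, a nuclear pore membrane protein, began only 18 nt downstream in both lists without cycloheximide (385 and 304 P-sites), and scra, the anillin gene, 477 and 21 nt downstream (286 and 326). Tm1, looked up as a muscle marker, kept 11 exons with 168 and 379 P-sites in treated cells and had 8 exons, with a start 645 nt downstream, with 100 and 114 in untreated cells.

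The opposite was called for Utx, a histone demethylase that was likewise picked with its values in view, in which the start lay 1047 and 1029 nt downstream in the presence of cycloheximide (40 and 61 P-sites, 6 of 10 exons) and was unchanged in its absence (42 and 28 P-sites). Downstream starts in all 4 lists were also seen at high counts, here too in genes picked by their values. In Acsl, a long-chain acyl-CoA synthetase with 3918 P-sites in the deep list, each of the 4 lists began 18 nt downstream, with 446, 751, 317 and 289 P-sites and 9 of 10 exons. In Ltn1, the ubiquitin ligase of ribosome quality control, the start lay 573, 249, 249 and 249 nt downstream. In zip, by contrast, both lists with cycloheximide began 135 nt upstream, with 1786 and 3875 P-sites, while A-RNaseI without it began 270 nt downstream (1138) and E-RNaseI without it kept the start (1363).

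Starts were compared at like density, with 1 ORF per stop codon. A stop codon with ORFs in more than 1 density class was counted in each of them, which gave 49 stop codons with at least 80 P-sites per 100 nt, against 48 by the ORF with the most P-sites. This class was singled out after its values were seen. There, the start was unchanged in 61.2% (47.2 to 73.6%) with A-RNaseI and 91.8% (80.8 to 96.8%) with E-RNaseI in treated cells, and in 38.8% (26.4 to 52.8%) and 53.1% (39.4 to 66.3%) in untreated cells. ORFs of 5 to 9 exons of that density had 72.1% (67.7 to 76.2%), 90.2% (87.0 to 92.6%), 57.2% (52.4 to 61.9%) and 71.1% (66.7 to 75.2%). ORFs of 1 exon had 79.1%, 89.8%, 74.3% and 82.4%. In this class the shares of 10 or more exons were the lowest in 3 of the lists and level with the others in E-RNaseI with cycloheximide, which had the highest P-site sum of the 4. Between 20 and 80 P-sites per 100 nt, 10 or more exons gave 43.7%, 74.5%, 27.8% and 30.7%, against 51.8%, 78.0%, 32.6% and 43.7% for 5 to 9 exons, 54.7%, 76.8%, 46.1% and 55.2% for 2 to 4, and 56.2%, 74.8%, 42.3% and 49.7% for 1. In this class, only A-RNaseI with cycloheximide fell at each step from 1 exon upwards. With at least 80 P-sites per 100 nt, ORFs of 2 to 4 exons had 75.9%, 89.7%, 66.2% and 73.3%. There the share fell at each step in each list except E-RNaseI with cycloheximide. Length was not held here, and the differences were not tested.

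ORFs with more exons are also longer, and length was held only in part. From 1500 to under 3000 nt at any density, pairs of 10 or more exons had unchanged starts in 45.0%, 66.7%, 42.5% and 45.7%, against 52.1%, 73.1%, 37.6% and 49.2% for 5 to 9 exons. The order thus turned with A-RNaseI in the absence of cycloheximide. From 3000 nt upwards the values were 42.1%, 69.9%, 25.4% and 28.0%, against 43.3%, 67.6%, 27.9% and 35.8%. From 1500 to under 3000 nt, density was held too. With at least 80 P-sites per 100 nt, pairs of 10 or more exons had 64.6% and 93.8% in treated cells (A-RNaseI, E-RNaseI). A-RNaseI in untreated cells gave 53.3%. For 5 to 9 exons the shares were 70.9%, 85.4% and 54.5%. Between 20 and 80, 10 or more exons gave 52.9%, 81.1% and 44.2%, against 51.5%, 79.6% and 32.4%. At like density and length, 10 or more exons were thus not lower in each list. The remaining list is not reported here. A part of exon number beyond that of length was not tested.

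**Figure D4:**
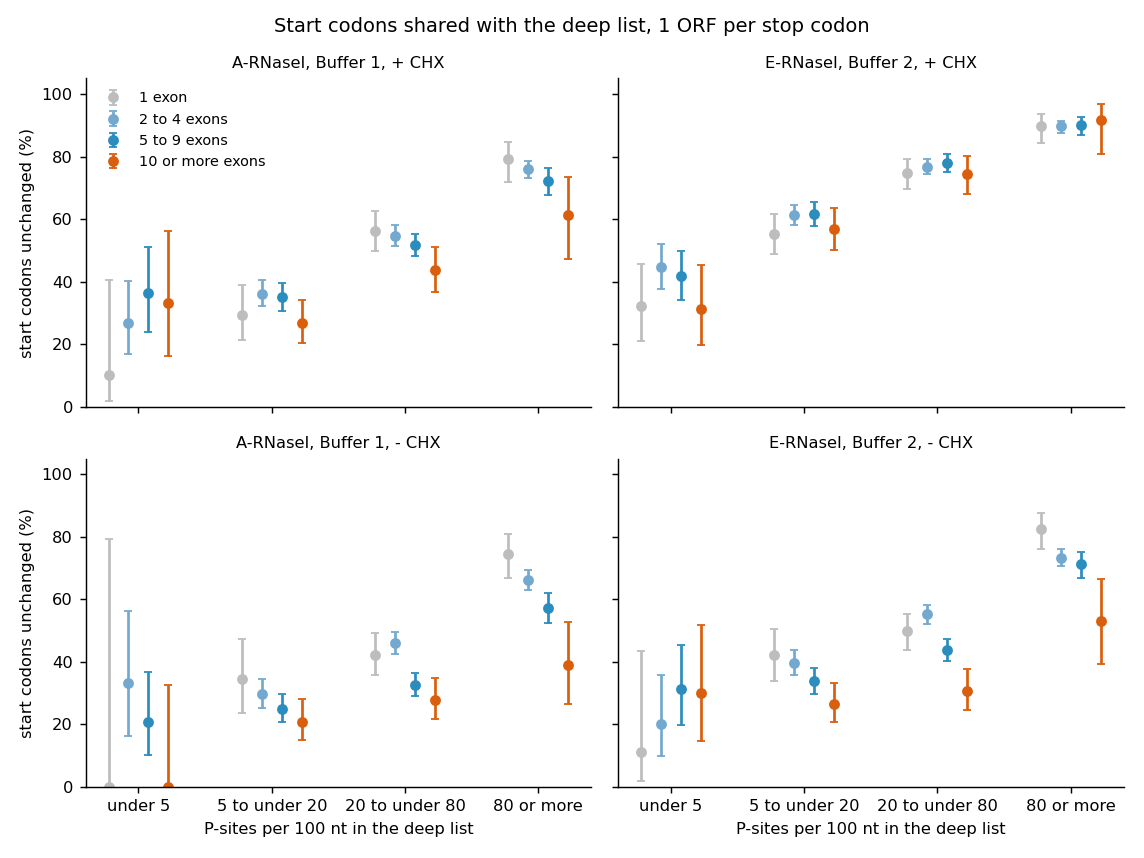
Percentage of stop codons whose ORF keeps the deep-list start codon in each standard list, by P-site density in the deep list and number of exons, with 1 ORF per stop codon. Bars are Wilson 95% intervals. At 80 or more P-sites per 100 nt, ORFs of 10 or more exons lie at 61.2%, 91.8%, 38.8% and 53.1% in panel order, and ORFs of 1 exon at 79.1%, 89.8%, 74.3% and 82.4%.

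The same identifier, that is the same transcript, start and stop, was called in all 5 lists for 98 of the 1313 ORFs (7.46%, 6.16 to 9.01%), against 13.1% of all annotated ORFs. Over the 5 lists, 72 stop codons (13.7%) had a single start, against 34.5%, and 337 (63.9%) had at least 3, against 33.8%. Several isoforms can share a stop codon within a list. The ORF with the most P-sites among those 98 was that of lig, the RNA-associated protein Lingerer, at 2R:8069900-8077828 on the plus strand. It held 10977 P-sites in the deep list on 14 exons and 956, 2468, 686 and 801 in the standard lists. Next were msk with 10559 P-sites, a short form of Dscam1 of 14 exons with 7202, Fmr1 with 6748 and Irc with 6474.

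Isoforms were called unevenly, and the genes named for their number of ORFs or starts were picked by it. A single ORF of 10 or more exons was called at 234 of the 527 stop codons, and up to 16 were called at the others. MRP, an ABC transporter of conjugated compounds, had 17 ORFs of 12 exons that shared 1 start, on 2 stop codons, mtd had 15 on 6 starts, and the microtubule minus-end protein Patronin and the muscle Z-disc protein Zasp52 had 13 each on 1 start. The most start codons at a single stop codon were 18 in Dys, which encodes dystrophin and is known for its internal promoters, with 7 in the deep list, 5 and 7 in the lists with cycloheximide and 4 and 4 in those without. The LAMMER kinase gene Doa had 16, and the Rab5 exchange factor gene spri 14.

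Genes were grouped by function to read these values by role. The 7 groups, 78 genes in all, were drawn up from the gene symbols after the results had been seen, and their counts are a description. Each gene is given by its ORF with the most P-sites. Since they were put together by hand, no trait is read from a group, and the shares over all 527 stop codons stand beside them. Of the 78 stop codons, 67, 73, 63 and 68 were found in the order of lists used above. Of all 527, the shares found were 78.7%, 93.2%, 71.9% and 85.0%. Of the group members paired on the same transcript, 22 of 61, 48 of 72, 17 of 58 and 22 of 64 kept the start. Over all stop codons, with 1 pair each, the start was kept in 38.5%, 64.3%, 25.7% and 31.4%.

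Ion channels, pumps and transporters ranged from 0.125 to 509 P-sites per 100 nt over 16 genes. Beside Atpalpha, the densest were PMCA (129) and 2 subunits of the V-ATPase, the proton pump of endosomes and lysosomes, Vha100-1 (107 on its densest form) and Vha44 (82.7). The exchangers Ae2 (17.0) and Nhe3 (8.51) were lower. Vha100-1 kept its start with 295 and 435 P-sites in treated cells and began 831 and 207 nt downstream in untreated cells, on 185 and 166. The cation-chloride cotransporter kcc had 1665 P-sites on 20 exons and kept all 20 in the standard lists, with 226, 371, 129 and 118 P-sites. Ncc69, another cotransporter, kept its start with E-RNaseI and cycloheximide (158 P-sites) and lost 4 of 18 exons without cycloheximide with either RNase. KCNQ, a potassium channel, had 139 P-sites in the deep list and was found in 1 standard list, and sei (27) and the sodium channel NaCP60E (7) in none. Trpm had 99 P-sites on the 31 exons of its best-covered form. All 31 exons were called from 7 and 16 P-sites in the lists with cycloheximide and 23 exons from 12 P-sites with A-RNaseI without it, and the stop codon was not found with E-RNaseI without it.

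Axon guidance and cell surface recognition genes ranged from 0.694 in tutl to 215 in Dscam1, with a median of 12.3 over 15 genes, against 17.6 over all 527 stop codons. Among ligands, Slit (sli, 17.8) had 800 P-sites and kept its start and 20 exons in 3 lists (177, 60 and 61 P-sites), while A-RNaseI with cycloheximide began 354 nt downstream (98). The semaphorins were lower, with 4.25 in Sema5c, 2.15 in Sema2a and 1.25 in Sema1a. Among receptors, the Slit receptors robo1 (17.7) and robo2 (15.1) changed their start wherever the stop codon was found, between 270 nt upstream and 1248 nt downstream. The netrin receptor fra (38.0) kept its start in 3 lists. The Eph receptor (23.7) began 177 nt downstream in all 4. Receptor tyrosine phosphatases ranged from 21.5 in Ptp69D through 12.3 in Ptp10D and 10.3 in Ptp4E to 2.41 in Ptp52F. Ptp10D kept its start in the 4 lists on 51 to 133 P-sites, whereas Ptp4E lost 6 of its 10 exons with A-RNaseI and cycloheximide, on 17 P-sites.

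Junction and polarity genes were found in every list, 10 of 10, against 65.3% of all 527 stop codons. Their median density was 24.2, against 17.6 over all 527, and denser stop codons were found in more lists. The densities ran from 4.44 in mesh, of the smooth septate junction, to 151 in alpha-Cat, which links cadherins to actin. The FERM protein cora (138) kept its 13 exons in 3 lists with 1358, 462 and 452 P-sites, and lost 2 exons with A-RNaseI and cycloheximide on 525. The scaffold scrib kept 24 exons in each list, on 139, 279, 100 and 86 P-sites over 5853 nt. The kinase par-1 never had the deep start, with shifts of 618, 315, 1524 and 1206 nt. Nrx-IV, a septate junction receptor, was shifted by 777, 531, 1623 and 2127 nt, and pyd, the fly ZO-1, by 666, 0, 1434 and 2760 nt.

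Of the motors, zip stood apart at 315 P-sites per 100 nt on its best-covered form. The myosins of intracellular transport were lower, with 35.3 in jar (myosin VI) and 9.23 in didum (myosin V). The kinesins lay between 18 in Khc-73 and 4.95 in unc-104. Myo95E, with 23 P-sites in the deep list, was found in no standard list. didum kept its 18 exons with cycloheximide (50 and 79 P-sites) and had 15, from a start 1143 nt downstream, without it (38 and 26).

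The 12 genes of mRNA turnover and translational control were found in all 4 lists, against 65.3% of all 527 stop codons. They ranged from 5.57 to 329 P-sites per 100 nt (median 47.1, against 17.6 over all 527). S6k, the ribosomal protein S6 kinase (231), and Fmr1 (329) kept their start in each list. The decapping enhancer Ge-1 (53.3), the deadenylase PAN2 (44.5) and the CCR4-NOT subunit Not3 (33.6) kept it in both lists with cycloheximide and lay 666, 813 and 507 nt downstream with A-RNaseI without it. The exonuclease pcm (13.9) kept it in 1 list. Gcn2, the eIF2 kinase (5.57), was found in all 4. The 8 nuclear pore and transport genes ranged from 15.4 in Ranbp16 to 336 in msk (median 46.3). With E-RNaseI and cycloheximide, 8 of 8 kept their start. tho2 of the mRNA export complex THO (43.3) and sbr, the export receptor NXF1 (47.7), kept it in each list, on 139 to 385 and 65 to 170 P-sites. Dbp80 was not found with A-RNaseI and cycloheximide although its density was 44.9.

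The 8 cohesin, SMC and Fanconi genes were found in each list, against 65.3% of all 527 stop codons. Their median density was 29.0, against 17.6 over all 527. Of the pairs, 1 of 8, 6 of 8, 1 of 7 and 1 of 7 kept the start, numbers too small to be set apart from the shares over all stop codons. The cohesin regulator pds5 (61.9) kept 13 exons with E-RNaseI and cycloheximide (502 P-sites) and began 174, 1479 and 1203 nt downstream in the others (220, 124 and 142). The cohesin subunit SMC1 (53.3) was shifted by 93, 0, 342 and 213 nt. FANCI (22.4), of the repair of DNA crosslinks, was shifted by 321, 201, 831 and 201 nt. The cohesin loader Nipped-B (39.4), with 21 exons over 5871 nt, kept its start in both lists with cycloheximide (221 and 453 P-sites).

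**Figure D5:**
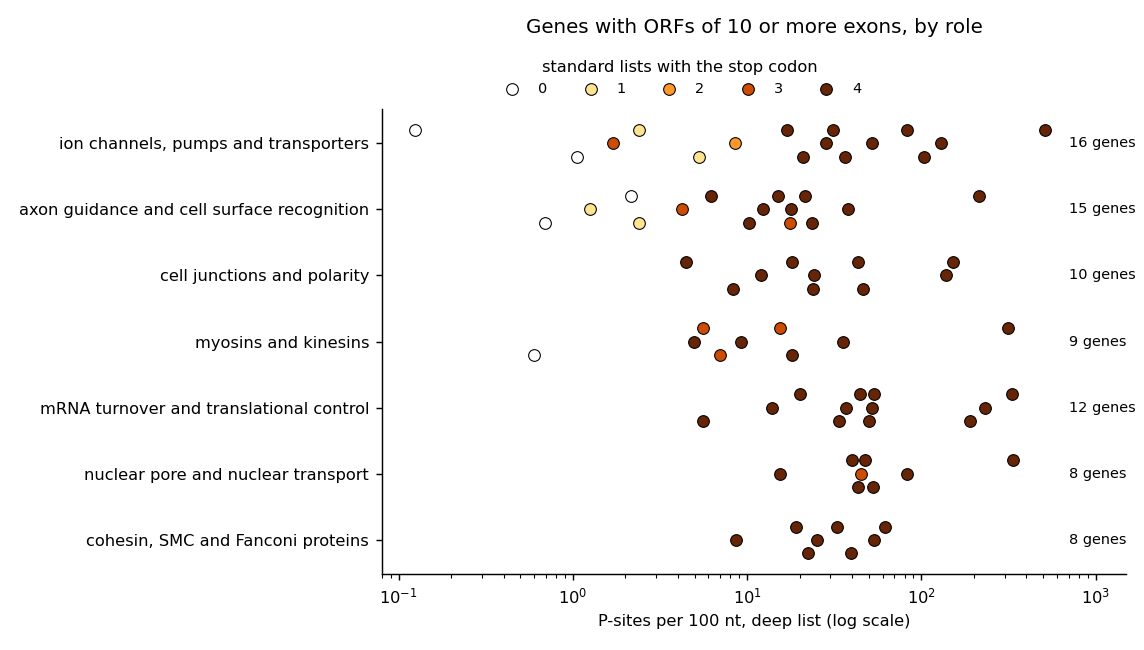
P-sites per 100 nt in the deep list (log axis) of 78 genes with ORFs of 10 or more exons, in 7 groups by function, 1 point per gene, coloured by the number of standard lists with its stop codon. Genes found in none of the 4 lie between 0.125 and 2.15. Every gene of the mRNA turnover, junction and cohesin groups was found in all 4, against 65.3% of all 527 stop codons. Their median densities were 47.1, 24.2 and 29.0, against 17.6 over all 527. The groups were put together by hand after the results had been seen, so no trait is read from them.

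Over all 6104 genes with an annotated ORF in the deep list, 397 (6.50%) had an ORF of 10 or more exons. In broader lists of genes by function, those with an ORF of 10 or more exons were 3 of 18 in cytoskeleton and motors (zip, jar, Patronin), 3 of 15 in membrane traffic (shi, Sec31, garz), 4 of 9 in ion transport, 2 of 15 in chromatin (Ino80, Nipped-B), 3 of 18 in RNA and translation, and 6 of 19 in signalling and adhesion. In Patronin the 16 exons were kept in 3 lists (245, 512 and 156 P-sites) and 11 remained with A-RNaseI without cycloheximide (79). The COPII coat protein Sec31 kept its start in each list on 554, 1230, 331 and 340 P-sites. shi, the dynamin of endocytosis, and garz, an exchange factor for Arf GTPases, each began 63 nt downstream in 3 lists and 612 and 1170 nt downstream in the remaining list. These lists were chosen with results of these data known.

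P-site numbers were compared between conditions for ORFs with the same identifier in both lists, scaled by the P-sites on the shared ORFs. With over without cycloheximide, the median was 0.972 (0.915 to 1.01) over 134 stop codons with E-RNaseI and 0.955 (0.897 to 0.980) over 61 with A-RNaseI, against 1.00 and 1.01 over all annotated ORFs. E-RNaseI over A-RNaseI gave 1.00 over 155 with cycloheximide and 1.03 over 71 without. The 4 medians thus lay between 0.955 and 1.03. Above a ratio of 2 there was 1 stop codon, with E-RNaseI, against a background of 1.92%, and below 0.5 there was none (background 0.835%). The other 3 comparisons had none above 2 (backgrounds 0.967%, 0.346% and 0.681%) and none below 0.5 (0.483%, 0.653% and 0.991%).

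The single ORF above 2 was that of pan, named after its value was seen, with 108 P-sites with and 13 without cycloheximide (scaled ratio 2.71, exact interval 1.52 to 5.25). Among the 35 stop codons with the same identifier in all 5 lists and at least 50 P-sites in each, the highest ratios for E-RNaseI were those of Mondo, a sugar-responsive transcription factor (224 and 52 P-sites, 1.40, 1.03 to 1.94), S6k (823 and 214, 1.25, 1.08 to 1.46) and Fmr1 (1688 and 465, 1.18, 1.07 to 1.31). The lowest were those of slgA, proline dehydrogenase (254 and 130, 0.637, 0.514 to 0.793), CG11961 (435 and 214, 0.663, 0.561 to 0.784) and sbr (170 and 73, 0.759, 0.574 to 1.01). With A-RNaseI, the ratios were 0.705 (0.521 to 0.955) in Mondo, 0.955 (0.815 to 1.12) in S6k, 0.95 (0.838 to 1.08) in Fmr1, 1.03 (0.810 to 1.32) in slgA, 0.816 (0.691 to 0.965) in CG11961 and 0.879 (0.626 to 1.24) in sbr. The side of 1 on which the ratio lay thus differed between the RNases in Mondo, S6k, Fmr1 and slgA and was the same in CG11961 and sbr. In S6k, Fmr1, slgA and sbr the A-RNaseI interval included 1, so its side is not settled. The genes were picked by their E-RNaseI ratio, and the difference between the RNases was not tested.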

How the data were processed

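The authors trimmed adapters (cutadapt 2.10), removed rRNA and tRNA reads (Bowtie2 2.4.1), mapped reads to the *D. melanogaster* genome (STAR 2.7.5c, SAMtools 1.10) and called ORFs with RiboTaper (versions from the submitters' processing notes). The methods place a subsampling of alignments to a like number of reads before ORF calling and do not mention the deep list. The deposited lists hold 1 whole number per ORF, taken here as its P-site count and not normalized. No source names it, and the lowest was 6.

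Exon lines were joined by identifier with pandas 2.3.3 (Python 3.11.15, scipy 1.17.1 and numpy 2.4.6). ORF length was taken from the transcript positions, from which the summed exons differed by 1 nt. Coordinates are those of the lists, counted from 1, and an end may be off by that 1 nt. Genes came from overlap with the RefSeq table, without strand (17872 genes, 13962 protein-coding), which left 28 of 1313 ORFs without a single gene. Shares have Wilson intervals, medians binomial order-statistic intervals and ratios exact Clopper-Pearson intervals.

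Members, function lists and marker lists were chosen with earlier results of these data known. Genes were named by fixed rules (most exons, highest density, densest in no standard list, largest start distances, most P-sites among ORFs with the same identifier in all 5 lists, extreme cycloheximide ratios, function lists), and others are marked as chosen after their values were seen, which also holds for the role groups. The rule of matching was tried on 475 stop codons copied from the deep list with altered starts, and the gene overlap on a few made-up ORFs. Of the known numbers, 6 of 6 were recovered, which checks the rule of joining and not the ORF calls. Alternatives were other exon and length limits, P-site minimums, and other units counted. Sequences were not used here. Some genes are not reported here.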

Additional observations from a re-analysis of the deposited data

How the results depend on the processing

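Of 103 alternative values, 65 lay within the interval of the reported value and 38 outside it. In the order A-RNaseI and E-RNaseI with, then without cycloheximide, the share of stop codons found became 31.5%, 61.8%, 20.3% and 27.2% when the same identifier was required, and 96.7%, 100%, 94.3% and 99.6% among ORFs with at least 20 P-sites per 100 nt in the deep list. With A-RNaseI it became 82.1% and 75.8% of genes, and 72.4% and 63.3% for stop codons with any ORF of 1500 to under 3000 nt. With at least 15 exons it was 80.0% for E-RNaseI without cycloheximide. The share of unchanged starts became 38.5%, 64.3%, 25.7% and 31.4% with 1 pair per stop codon. It was 71.9% for E-RNaseI with cycloheximide with at least 20 P-sites in that list, 53.6% for A-RNaseI with cycloheximide with at least 15 exons, 39.5% for E-RNaseI without cycloheximide with at least 8, and 42.5% and 45.7% without cycloheximide from 1500 to under 3000 nt. With at least 80 P-sites per 100 nt, added after the values were seen, it was 60.1%, 96.4%, 46.2% and 46.3% over pairs and 61.2%, 91.8%, 38.8% and 53.1% over stop codons. The share of differing starts that lay downstream became 89.8% for A-RNaseI with cycloheximide with 1 pair per stop codon; 80.6%, 61.9% and 89.3% in the first 3 lists with at least 15 exons; and 75.8%, 95.1% and 92.4% in the last 3 with at least 20 P-sites. The median ratio of E-RNaseI over A-RNaseI without cycloheximide became 0.971 with at least 15 exons. The cause of these shifts was not tested.

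No paired analysis was possible because each condition had 1 sample. Depth limits what the lists can show: a stop codon missing from a list, or a start called downstream in it, was not separated from a lack of P-sites, and the standard lists held 4.62 to 14.2 times fewer P-sites on shared ORFs than the deep list. The deep list, from untreated cells and E-RNaseI, is the reference of each comparison.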
